A study of Mus musculus with 6 samples.

Results

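The serpins are a superfamily of protease inhibitors, and their genes were taken from the deposited expression table by name alone, as every gene symbol of clades a to i that starts with Serpin. Of 38244 gene names in the table, 63 matched, on 59 of 37753 entries with values. A total of 4 entries joined the names of a pair of neighbouring serpin genes and gave both a single value. Symbols ending in -ps were left out by the rule (3 names), whereas 2 pseudogenes ending in -ps1, *Serpina4-ps1* and *Serpinb1-ps1*, remained and were at 0 or near it in every library.

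A classical serpin presents a flexible reactive centre loop as bait. Cleavage of the loop by the target protease traps the enzyme in a covalent complex, and both proteins are spent. Clade A holds mostly secreted plasma proteins of the liver, such as alpha-1-antitrypsin, and clade B holds intracellular serpins, many of them expressed in epithelia and leukocytes. Some members inhibit no protease, among them the collagen chaperone HSP47 (*Serpinh1*), pigment epithelium-derived factor (*Serpinf1*) and maspin (*Serpinb5*), which is known in the mammary gland as a protein of myoepithelial cells whose expression is often lost in carcinoma.

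The study asked how loss of the kinases JNK1 and JNK2, encoded by *Mapk8* and *Mapk9*, affects the mammary epithelium. RNA-seq was available for 3 control and 3 tumor libraries. The controls were primary mammary epithelial cells (MEC) of WAPCre+ mice, which carry the Cre transgene without the deletion. All 6 libraries are of strain C57/Bl6J. For each MEC culture the mammary tissue of between 3 and 5 virgin mice, 10 to 12 weeks old, was combined and grown on collagen I in medium with epidermal growth factor and insulin. The tumor libraries came from 3 breast tumor cell lines (MEKO), 199, 233 and 336, grown from breast tumors of the genotype Mapk8KO Mapk9KO Cre+, in which Cre deleted both JNK genes. These lines were passaged 2 times on collagen before they were moved to plain dishes. Wap-Cre acts in luminal cells of the lactating gland. In the study, tumors of this genotype came from older mice that had borne litters. Genotype, tumor origin, age, parity and culture history differed together between the groups and cannot be told apart, and each line was 1 library. The series describes the tumors as adenosquamous, while the study's own list, paired here by number, gives adenosquamous carcinoma for 199, both types for 233 and adenocarcinoma for 336.

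Values are FPKM, fragments scaled to transcript length and library size, which is a level per length. The deleted genes were lower in every MEKO line. *Mapk8* was at 22.5 ± 2.98 FPKM in MEC and 3.47 ± 2.30 in MEKO (SD, n = 3 each), and *Mapk9* at 22.7 ± 1.53 and 4.61 ± 2.60. All 6 libraries expressed the luminal keratins *Krt8*, *Krt18* and *Krt19* and the epithelial genes *Epcam* and *Cdh1*, at lower summed levels in MEKO (789 to 1962 FPKM) than in MEC (5308 to 8869). Summed FPKM was between 557991 and 638365 a library, and the relative depth read from the smallest values was between 0.92 and 1.30 of MEC 1.

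Most serpin genes were at 0 or at low levels in these cells. A total of 17 entries (19 names) were at 0 in all 6 libraries, 23 more stayed under an FPKM of 1 everywhere, and 19 entries (20 names) reached an FPKM of 1 in at least 1 library. The number of entries above an FPKM of 1 was 11, 11 and 10 in the MEC libraries and 11, 12 and 13 in lines 199, 233 and 336. Only 8 entries were above it in all 6 libraries, among them *Serpinb5*, *Serpinb6a*, *Serpinb8*, *Serpinb9*, *Serpine2*, *Serpinf1* and *Serpinh1*. The clades differed in how many members were measured. Clade B, the intracellular group, had 14 of 28 names at an FPKM of 1 or more in some library, and clade A, the plasma protein group, had 1 of 24. The clade A exception was *Serpina3g*, a cysteine protease inhibitor known from lymphoid cells, which reached 1.25 FPKM in line 199 and 0.193 or less elsewhere. Genes of hepatocytes, the usual source of clade A serpins, were likewise near 0 (*Alb*, *Apoa1* and *Ttr* at or under 0.0351 FPKM), although *Trf*, from the same marker list, was expressed. Antithrombin (*Serpinc1*), heparin cofactor II (*Serpind1*), antiplasmin (*Serpinf2*) and neuroserpin (*Serpini1*) did not reach an FPKM of 1 in any library.

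**Figure D1:**
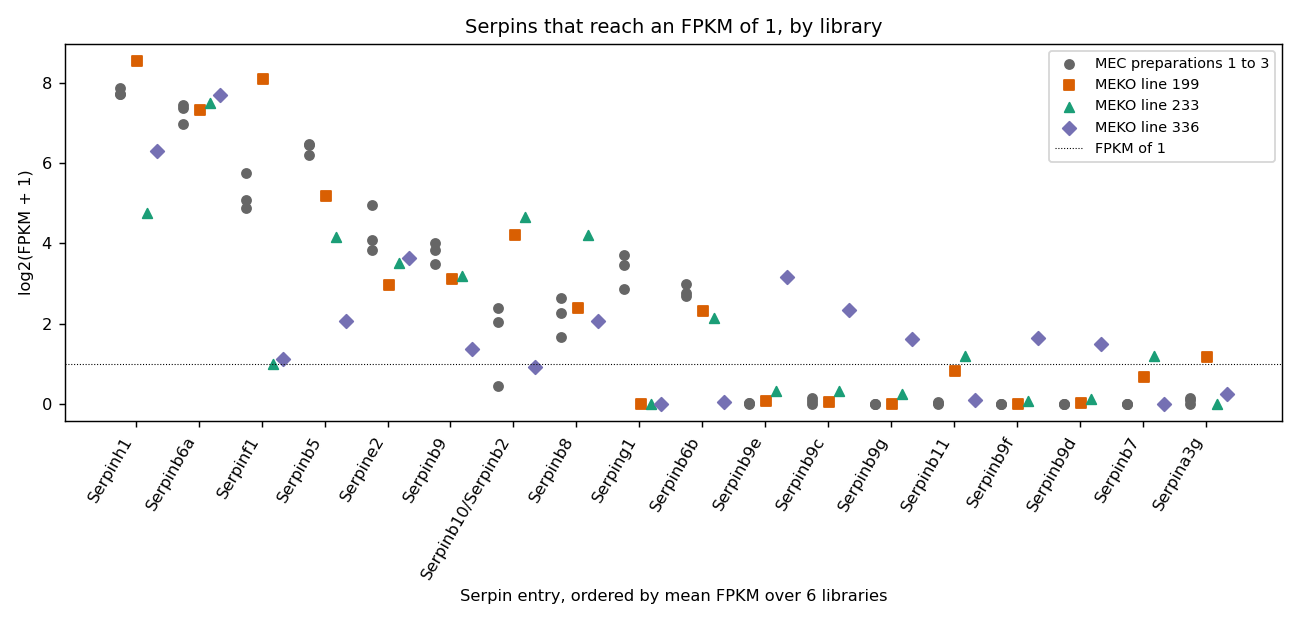
Levels of 18 serpin entries that reached an FPKM of 1 in at least 1 library, as log2(FPKM + 1) on the vertical axis, with entries on the horizontal axis ordered by mean FPKM. Grey circles are the 3 MEC libraries and coloured symbols the 3 MEKO lines; the dotted line marks an FPKM of 1. The reader should see the 3 lines far apart for Serpinh1, Serpinf1 and Serpinb5, all 3 lines at 0 for Serping1, and values above 1 in line 336 alone for Serpinb9c to Serpinb9g.

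A few members carried most of the serpin RNA. The summed serpin FPKM was 714, 834 and 618 in the MEC libraries, 1185 in line 199, 323 in line 233 and 359 in line 336. *Serpinh1* and *Serpinb6a* were among the 3 leading members in every MEC library, and *Serpinh1* and *Serpinf1* in line 199. *Serpinb6a* made up 20.2% to 22.8% of the serpin FPKM in MEC and 13.4% in line 199, but more than that in lines 233 (55.9%) and 336 (57.1%).

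Differential expression was tested with limma on log2(FPKM + 1) over all 12461 entries with a mean FPKM of at least 1, with Benjamini-Hochberg adjustment, and a gene was called at an adjusted p under 0.05 and a log2 fold change (MEKO minus MEC) beyond 0.75. Of the serpins, 12 entries (13 names) had this mean. The 7 others that reached an FPKM of 1 in some library had a lower mean and were not tested. *Serping1* alone was called lower in MEKO and no serpin was called higher. Over all tested entries, 7.26% were called lower and 2.64% higher. At an unadjusted p under 0.05, 4 serpin entries were lower (*Serping1*, *Serpinb5*, *Serpine2* and *Serpinb9*) and 0 higher, against 15.7% and 12.4% of all tested entries. The median log2 fold change was -1.17 over the 12 serpin entries and 0.01 over all entries, with 8 of 12 serpins and 48.8% of all entries below 0. All 3 lines lay below all 3 MEC libraries for 5 of the 12 entries (18.7% of all tested entries) and above them for 1 (18.5%), and for 37.2% of all tested entries the groups were apart in either direction. The 1 entry above was *Serpinb9e*, which passed the filter only through its high value in line 336, so it supports nothing here. With 3 libraries against 3, an exact permutation test of a single gene cannot give a p under 0.1.

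Serpin levels differed widely among the 3 tumor lines. The median range over the 3 MEKO lines was 2.68 on the log2(FPKM + 1) scale for the 12 tested serpins and 0.62 for all tested entries. Over the 3 MEC libraries the corresponding ranges were 0.69 and 0.35. A range over 2 among the lines, 4-fold in FPKM + 1, was found for 8 of the 12 serpins, *Serpinb9e* included, and for 9.54% of all tested entries. Each line was therefore also set against the 3 MEC libraries, and a serpin was counted when the line lay outside the MEC range and more than 0.75 from the MEC mean on the log2 scale. With 1 library a line these counts are descriptions without a test. Line 199 had 4 serpin entries above MEC and 3 below, where 12.8% and 16.9% of all tested entries were so placed. In line 233, 2 entries were above and 6 below (9.92% and 17.5% of all entries), and in line 336, 1 was above and 7 were below (11.2% and 18.2%). The entry above in line 336 was again *Serpinb9e*, tested only because of that line.

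**Figure D2:**
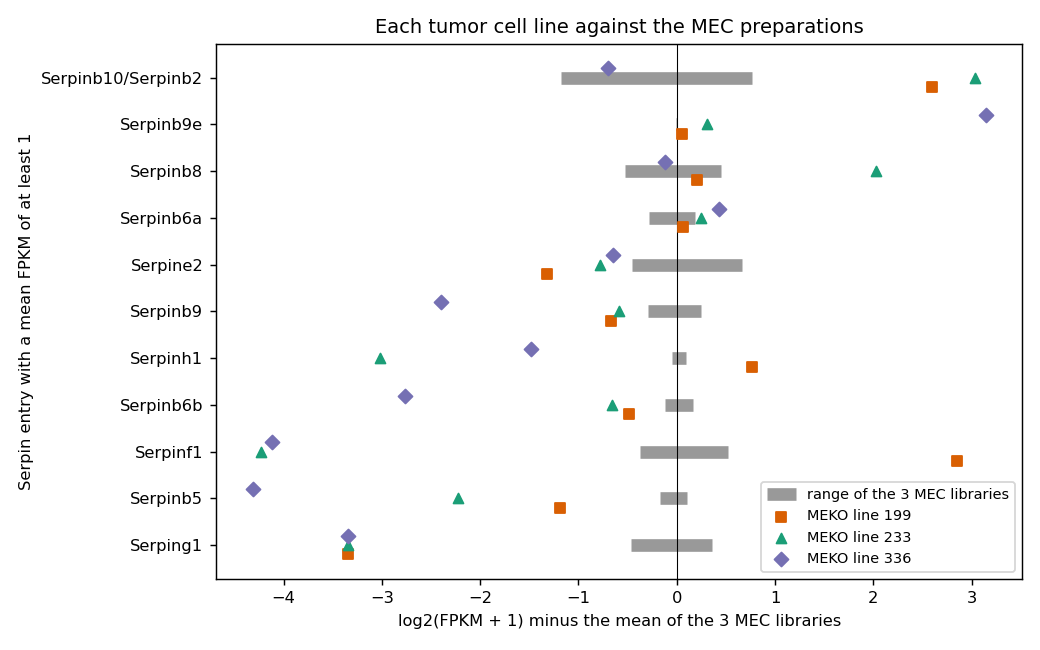
Difference of each MEKO line from the mean of the 3 MEC libraries on the log2(FPKM + 1) scale (horizontal axis) for 11 of the tested serpin entries (vertical axis), ordered by log2 fold change. Grey bars span the 3 MEC libraries, and symbols are single lines. Serping1 and Serpinb5 lie left of the bar in all 3 lines, whereas line 199 lies right of the bar and lines 233 and 336 left of it for Serpinh1 and Serpinf1.

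*Serping1* encodes the C1 inhibitor, a secreted serpin that blocks the complement proteases C1r and *C1s* as well as plasma kallikrein and factor XIIa. It was at 6.35, 9.98 and 12.1 FPKM in the MEC libraries and was listed at 0 in lines 199, 233 and 336, so the groups did not overlap. The log2 fold change was -3.35 with a standard error of 0.27 (limma adjusted p = 0.00186). Its size depends on the constant of 1 added to FPKM, since the lines hold no signal, and no fold is given. Of the 7773 entries that were as high as the lowest *Serping1* value in every MEC library, 3 were at 0 in all 3 lines, *Serping1* included. None of 8 housekeeping genes was at 0 in any library. The gene lies at chr2:84765387-84775444 on the minus strand (mm10). The next expressed gene on the side of higher coordinates, *Ube2l6*, was at 5.93 FPKM or more in each line, against 17.9 to 38.9 in MEC.

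Some markers of several cell types were lower in the lines, as *Serping1* was. Of 5 tested luminal markers 4 were called lower and 0 higher, while 7.26% of all tested entries were called lower. In bulk RNA, fewer cells of a type and less RNA per cell cannot be told apart. Of the leukocyte markers, 1 of the 3 tested was called lower, *Lyz2*, with 16.5 to 32.9 FPKM in MEC and at most 0.0182 in the lines, while *Ptprc*, which defines leukocytes, was at most 0.399 in MEC. The summed level of the 7 leukocyte markers was 22.5 to 43.0 FPKM in MEC and 0.969, 3.08 and 24.9 in lines 199, 233 and 336, the last of these being mostly *Cd68*. Endothelial markers summed to 1.67 to 13.9 FPKM in MEC and to at most 0.430 in the lines, with none of 2 tested called. Of 7 tested basal and myoepithelial markers 2 were called lower and 0 higher. This list summed to 1510 to 2780 FPKM in MEC and to 2259, 10.6 and 58.6 in lines 199, 233 and 336. Its member *Myh11* was at 22.4 to 41.8 FPKM in MEC and at most 0.0812 in the lines. By contrast, *Krt5*, *Krt14* and *Trp63* were above all MEC libraries in line 199. Of 6 tested fibroblast markers 1 was called lower, *Dcn*, and this list summed to 118 to 207 FPKM in MEC and to 1111, 2.43 and 4.23 in lines 199, 233 and 336. The sum in line 199 was mostly *Col1a1* (600 FPKM) and *Col1a2* (408), while *Dcn* (0.311) and *Lum* (0.0264) were below all MEC libraries there, as *Serping1* was. The other fibroblast markers held the rest of that sum and are not given singly. The part of these cell types in the *Serping1* difference was not tested.

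Maspin, encoded by *Serpinb5*, was lower in every line, but the size of the difference varied between the lines. MEC had 86.3, 88.0 and 72.5 FPKM, line 199 had 35.5, line 233 had 16.8 and line 336 had 3.16. The 3 MEC libraries were close to each other and above all lines, which themselves covered an 11.2-fold range. The log2 fold change was -2.57 with a standard error of 0.74 (limma adjusted p = 0.0795), which did not pass the threshold. Without line 199 the adjusted p was 0.0204 and without line 336 it was 0.0431, but without line 233 it was 0.126 and without any 1 MEC library between 0.205 and 0.216. The basal keratins *Krt5*, *Krt14* and *Krt17*, *Trp63*, *Acta2*, *Myh11* and *Oxtr*, the markers of the cells that make maspin in the gland, summed to 1510 to 2780 FPKM in MEC, 2259 in line 199, 10.6 in line 233 and 58.6 in line 336. Within line 199 this sum combined opposite differences. *Krt5* (608 FPKM), *Krt14* (521) and *Trp63* (15.6) were above all MEC libraries in that line, whereas the contractile genes *Acta2* (719) and *Myh11* (0.0812) and the oxytocin receptor *Oxtr* (0.0125) were below all of them, as *Serpinb5* was. Line 336 had the lowest *Serpinb5* but not the lowest sum of basal markers. Their part in the *Serpinb5* difference was not tested.

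A collagen chaperone and a secreted serpin of the extracellular matrix split the lines. *Serpinh1* is the chaperone HSP47 of the endoplasmic reticulum, which binds folding procollagen. It was at 211, 210 and 233 FPKM in MEC, 370 in line 199, 26.0 in line 233 and 77.1 in line 336. Line 199 was above all MEC libraries and the other lines below all of them, a 14.2-fold range among the lines. *Serpinf1*, which encodes the anti-angiogenic pigment epithelium-derived factor, followed the same order with a wider range. MEC had 28.2, 33.1 and 53.0 FPKM, line 199 had 271, line 233 had 1.02 and line 336 had 1.18, so that line 199 stood 267-fold above line 233. The mean FPKM of *Serpinf1* was higher in MEKO (91.2 ± 156) than in MEC (38.1 ± 13.1, SD, n = 3), whereas its log2 fold change was negative (-1.83, limma adjusted p = 0.552), which reflects the 1 high line. For *Serpinh1* the log2 fold change was -1.25 (limma adjusted p = 0.392). Without line 199, limma gave adjusted p = 0.00154 for *Serpinf1* (log2 fold change -4.17) and 0.0251 for *Serpinh1* (-2.25), in a fit in which MEKO consists of 2 lines. With any other library left out, the adjusted p was between 0.651 and 0.862 for *Serpinf1* and between 0.525 and 0.753 for *Serpinh1*.

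*Serpine2*, protease nexin 1, which inhibits thrombin, urokinase and plasmin at the cell surface, was at 13.3, 15.9 and 29.9 FPKM in MEC and at 6.81, 10.4 and 11.5 in lines 199, 233 and 336. All lines were below all MEC libraries and lay within 1.69-fold of each other, the second smallest range among the lines of the tested serpins with a signal, and line 199 was here the lowest (log2 fold change -0.92 ± 0.34 (SE), limma adjusted p = 0.142). *Serpine2* therefore ranked line 199 in the opposite order to *Serpinh1* and *Serpinf1*.

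The collagen genes and collagen folding enzymes, taken as a sum, were lowest in the same lines as *Serpinh1*. Of 14 such genes, all tested, 0 were called in either direction, against 9.9% of all tested entries. Their summed level was 536, 634 and 438 FPKM in MEC, 1667 in line 199, 187 in line 233 and 174 in line 336. Not each gene followed the sum, as *Plod2* was at 11.1 FPKM in line 199, 18.6 in line 233 and 10.4 in line 336. *Col1a1* was at 44.2 to 74.7 FPKM in MEC, 600 in line 199, 1.08 in line 233 and 0.566 in line 336, and the prolyl isomerase *Fkbp10* at 19.6 to 26.4, 25.3, 0.0195 and 0.196. Of the fibroblast markers, line 199 had high *Col1a1* and *Col1a2* but *Dcn* at 0.311 and *Lum* at 0.0264 FPKM, below the MEC values of 3.29 to 6.62 and 0.507 to 1.28. The rest of that list, *Col3a1*, *Pdgfra*, *Pdgfrb* and *Thy1*, is not given singly. It held the remainder of the list's sum of 1111 FPKM in line 199. Whether line 199 holds fibroblasts was not tested.

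**Figure D3:**
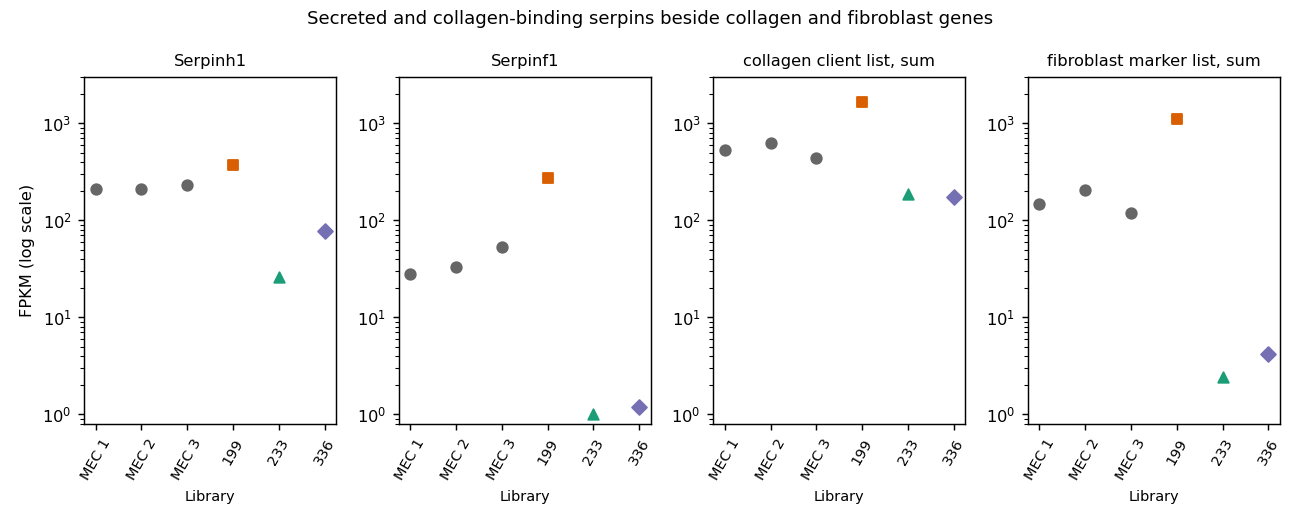
FPKM on a log axis in each of the 6 libraries (horizontal axis) for Serpinh1, Serpinf1 and summed lists. The lists are 14 collagen genes and collagen folding enzymes, titled collagen client list, and 8 fibroblast markers. The lists share 3 collagen genes. Grey circles are MEC libraries and coloured symbols MEKO lines. Line 199 is the highest library in all 4 panels and lines 233 and 336 are the lowest, with Serpinf1 at 1.02 and 1.18 FPKM in those lines.

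Genes of plasminogen activation, which holds targets of *Serpine2* and *Serpinb2*, were described as a list. Of 14 listed genes 9 were tested and 0 were called in either direction, against 9.9% of all entries. Urokinase (*Plau*) was at 296 to 319 FPKM in MEC and 232 to 293 in the lines (log2 fold change -0.25, limma adjusted p = 0.296). Tissue-type activator (*Plat*) was at 9.37 to 18.3 FPKM in MEC and 0.704 to 7.32 in the lines (-1.75, adjusted p = 0.135). The urokinase receptor (*Plaur*) was at 65.1, 115 and 16.6 FPKM in MEC and at 52.8, 54.7 and 52.9 in the lines. MEC 3 was thus the lowest library for *Plaur*, while the lines were close to each other. Plasminogen itself (*Plg*) was at 0 in all libraries.

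The clade B genes of mouse chromosome 1 lie in a cluster of 12 names between 106861173 and 107610484 (mm10), of which 6 reached an FPKM of 1. Besides *Serpinb5*, these were the neighbours *Serpinb11*, *Serpinb7*, *Serpinb2*, *Serpinb10* and *Serpinb8*. *Serpinb2*, plasminogen activator inhibitor 2, a stress-induced serpin of keratinocytes and macrophages, shares 1 entry with *Serpinb10*, which is annotated as a polymorphic pseudogene. Their annotated exons overlap by 291 bases on the same strand, and their levels cannot be separated. The joined entry was at 3.10, 4.26 and 0.367 FPKM in MEC, 17.6 in line 199, 24.3 in line 233 and 0.901 in line 336. Lines 199 and 233 were above all MEC libraries and line 336 was between them, with MEC 3 the lowest library (log2 fold change 1.64 ± 1.05 (SE), limma adjusted p = 0.352). *Serpinb8*, an inhibitor of furin, was at 5.24, 3.80 and 2.16 FPKM in MEC and at 4.26, 17.6 and 3.19 in lines 199, 233 and 336, so line 233 stood apart and the others fell within the MEC range (0.71 ± 0.59, adjusted p = 0.472). *Furin*, its target, was called lower, with 53.6 to 64.7 FPKM in MEC and 28.3, 18.0 and 29.8 in the lines (log2 fold change -1.24, limma adjusted p = 0.0214), and line 233, with the highest *Serpinb8*, had the lowest *Furin*.

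A pair of low members of the same cluster, *Serpinb7* and *Serpinb11*, were also highest in line 233. *Serpinb7*, a serpin of the upper epidermis, was at 0 in all MEC libraries and in line 336, at 0.604 FPKM in line 199 and at 1.31 in line 233. *Serpinb11* was at 0.0472 FPKM or less in MEC, 0.781 in line 199, 1.30 in line 233 and 0.0738 in line 336. Both were low everywhere and were not tested. The order line 233, line 199, line 336 was shared by *Serpinb7*, *Serpinb8*, *Serpinb11* and the joined entry, but not by *Serpinb5* at the other end of the cluster, where line 199 was highest. Stratified squamous markers, which could accompany epidermal serpins, summed to 31.9 to 103 FPKM in MEC, 253 in line 199, 5.09 in line 233 and 16.9 in line 336, so line 233 had the lowest sum.

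The promoters of *Serpinb7* and *Serpinb8* are shown because they were the members above an FPKM of 1 that held the AP1 heptamer. AP1, the dimer of JUN and FOS proteins, is a transcription factor that JNK phosphorylates. The heptamer was searched as TGACTCA or TGAGTCA, which are each other's reverse complement, in RefSeq promoters of 300 bases (250 before the start and 50 after it, GRCm38.p6). Capitals mark it in the promoters, at chr1:107422439-107422738 and chr1:107589756-107590055, both on the plus strand and printed 5′ to 3′.
Serpinb7: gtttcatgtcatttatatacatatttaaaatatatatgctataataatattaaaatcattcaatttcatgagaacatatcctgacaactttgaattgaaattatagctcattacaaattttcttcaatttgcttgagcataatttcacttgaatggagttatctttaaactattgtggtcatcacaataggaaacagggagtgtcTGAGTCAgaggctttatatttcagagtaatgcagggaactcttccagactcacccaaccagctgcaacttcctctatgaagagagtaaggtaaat
Serpinb8: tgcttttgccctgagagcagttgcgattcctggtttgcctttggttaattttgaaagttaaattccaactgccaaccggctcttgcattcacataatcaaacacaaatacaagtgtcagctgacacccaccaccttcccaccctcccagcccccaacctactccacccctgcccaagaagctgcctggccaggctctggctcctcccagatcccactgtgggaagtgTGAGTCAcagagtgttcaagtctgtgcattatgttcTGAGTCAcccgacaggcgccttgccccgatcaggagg
The heptamer starts 45 bases before the start in *Serpinb7*, and 23 bases before and 14 bases after it in *Serpinb8*. It was found in 2 of the 18 serpins above an FPKM of 1 that had a promoter in the table, and in 6 of the 52 serpin names with one. The other 4 were *Serpina1a*, *Serpina1b*, *Serpina1c* and *Serpina1d*, near-identical alpha-1-antitrypsin genes that were at 0 in all libraries. Of all 27025 genes with a promoter, 5.95% had one that held the heptamer. A match is a description of the sequence and does not show binding.

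On chromosome 13, 16 clade B names lie between 32842092 and 34002794 (mm10), and 8 reached an FPKM of 1. Here line 336 differed from the other libraries at genes of the same cluster in opposite directions. *Serpinb6b* was at 5.81, 5.49 and 6.91 FPKM in MEC, 4.02 in line 199, 3.46 in line 233 and 0.0385 in line 336. *Serpinb9*, the granzyme B inhibitor that protects cells of the immune system and some tumor cells from killer lymphocytes, was at 10.1, 13.2 and 15.2 FPKM in MEC, 7.61 in line 199, 8.10 in line 233 and 1.59 in line 336. For both genes all lines were below all MEC libraries. On the log2 scale, lines 199 and 233 were less than 0.75 below the MEC mean, and line 336 was 2.76 and 2.40 below it. The log2 fold changes were -1.30 ± 0.60 (SE) for *Serpinb6b* (limma adjusted p = 0.218) and -1.22 ± 0.50 for *Serpinb9* (0.175).

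Further along the chromosome, a block of 5 genes showed the reverse. *Serpinb9c*, *Serpinb9d*, *Serpinb9e*, *Serpinb9f* and *Serpinb9g*, relatives of *Serpinb9* that arose by duplication in rodents, lie within 346.73 kb of each other (33149275 to 33496004). Their summed level was 0.131, 0 and 0.0652 FPKM in MEC, 0.109 in line 199, 0.833 in line 233 and 18.0 in line 336. All 5 were highest in line 336, at 4.12, 1.84, 7.91, 2.12 and 2.06 FPKM from *Serpinb9c* to *Serpinb9g*. Outside line 336 the highest value of any of them was 0.251 FPKM, and *Serpinb9d*, *Serpinb9f* and *Serpinb9g* were at 0 in all MEC libraries. Line 233 was the second highest library for each of the 5. *Serpinb9e*, which alone of the 5 had a mean high enough to be tested, through line 336, was at 0.0126, 0 and 0.0128 FPKM in MEC, 0.0479 in line 199 and 0.249 in line 233 (log2 fold change 1.17 ± 0.82 (SE), limma adjusted p = 0.390).

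The serpin genes around this block did not share the pattern in full, and other genes around it were not examined. *Serpinb9b*, which lies between *Serpinb9* and the block, was at 0.476 to 0.751 FPKM in MEC and 0.753, 0.651 and 0.494 in lines 199, 233 and 336. *Serpinb1b*, also between them, was at 0.1003 FPKM or less in MEC, 0.856 in line 199, 0.107 in line 233 and 0.943 in line 336. It was thus highest in line 336 too, with line 199 close. *Serpinb6d* and *Serpinb6e*, on the far side, were at 0.0755 FPKM or less. Granzymes, among them the target of *Serpinb9*, and other leukocyte serine proteases were scarce. None of the 13 listed genes had a mean FPKM of 1, and the highest value of any was 1.48 FPKM, for *Prtn3* in MEC 3.

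**Figure D4:**
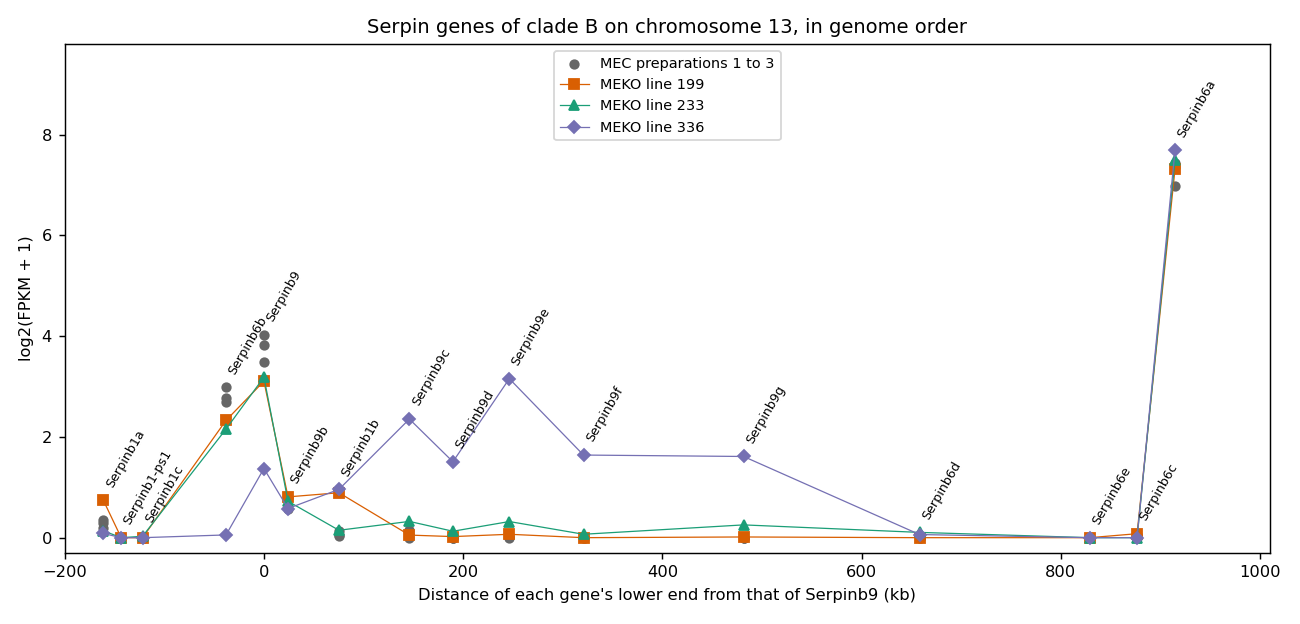
Level of each clade B serpin of chromosome 13 as log2(FPKM + 1), against the distance of its lower end from that of Serpinb9 in kb. Grey circles are MEC libraries; symbols joined by lines are the MEKO lines, and the joining lines only guide the eye. In line 336 Serpinb6b and Serpinb9 are lower and Serpinb9c to Serpinb9g higher than in any other library, while Serpinb6a at the far end is high in all 6.

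The sequences of the block are shown because *Serpinb9d* to *Serpinb9g* are close copies whose reads could be assigned to each other. Over the longest transcripts, *Serpinb9d*, *Serpinb9e*, *Serpinb9f* and *Serpinb9g* were 94.2% to 97.5% identical, and *Serpinb9c* was 73.1% to 77.1% identical to them. The closest serpin to *Serpinb9c* was *Serpinb9*, outside the block, at 80.3% over the aligned bases. All 5 genes were 77.2% to 81.2% identical to *Serpinb9* and *Serpinb9b*. Of all windows of 150 bases, the read length, 1.18% in *Serpinb9d*, 2.03% in *Serpinb9e*, 11.7% in *Serpinb9f* and 10.3% in *Serpinb9g* occurred in another serpin, and none in *Serpinb9c*. The separate levels of *Serpinb9d* to *Serpinb9g*, most of all *Serpinb9f* and *Serpinb9g*, are therefore less certain than their sum. Promoters from RefSeq (GRCm38.p6) are printed 5′ to 3′ for *Serpinb9e* (chr13:33249358-33249657, plus strand), *Serpinb9g* (chr13:33484540-33484839, plus strand), *Serpinb9c* (chr13:33159705-33160004, minus strand) and, for contrast, *Serpinb9* (chr13:33004291-33004590, plus strand). Capitals mark the longest run of bases that *Serpinb9d*, *Serpinb9e*, *Serpinb9f* and *Serpinb9g* share.
Serpinb9e: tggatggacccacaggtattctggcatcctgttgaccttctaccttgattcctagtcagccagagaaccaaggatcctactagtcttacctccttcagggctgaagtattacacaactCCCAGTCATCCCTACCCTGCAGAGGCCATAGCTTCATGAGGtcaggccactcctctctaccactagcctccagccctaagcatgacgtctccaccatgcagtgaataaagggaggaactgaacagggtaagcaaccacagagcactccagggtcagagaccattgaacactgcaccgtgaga
Serpinb9g: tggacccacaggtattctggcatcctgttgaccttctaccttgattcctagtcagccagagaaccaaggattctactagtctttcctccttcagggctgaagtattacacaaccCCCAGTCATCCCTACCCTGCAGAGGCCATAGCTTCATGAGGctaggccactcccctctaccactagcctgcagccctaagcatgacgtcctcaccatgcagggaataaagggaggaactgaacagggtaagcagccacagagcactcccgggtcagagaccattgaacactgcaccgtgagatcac
Serpinb9c: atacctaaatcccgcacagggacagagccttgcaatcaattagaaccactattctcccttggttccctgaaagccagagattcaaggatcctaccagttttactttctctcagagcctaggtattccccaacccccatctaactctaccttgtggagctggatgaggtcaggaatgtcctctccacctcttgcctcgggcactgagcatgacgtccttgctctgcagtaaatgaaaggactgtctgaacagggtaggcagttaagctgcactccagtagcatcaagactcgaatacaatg
Serpinb9: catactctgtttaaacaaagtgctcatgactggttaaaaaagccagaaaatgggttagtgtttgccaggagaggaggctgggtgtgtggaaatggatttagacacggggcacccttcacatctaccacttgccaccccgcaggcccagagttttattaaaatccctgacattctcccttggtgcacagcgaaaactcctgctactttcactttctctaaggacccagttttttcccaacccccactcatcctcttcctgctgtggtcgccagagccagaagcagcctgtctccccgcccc
The shared run of 41 bases was found in the 4 promoters of *Serpinb9d* to *Serpinb9g* and in no other of the 32851 promoters in the table. In global alignments the promoters of *Serpinb9d* to *Serpinb9g* were 82.9% to 93.4% identical to each other, and that of *Serpinb9c* was 57.3% to 62.3% identical to them. The promoters of *Serpinb9* and *Serpinb9b* were 41.3% to 44.6% identical to those of the 5 genes. The AP1 heptamer was in none of the promoters of *Serpinb9* and these 5 genes.

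*Serpinb6a*, at the far end of the cluster, was high in every library. It encodes an intracellular inhibitor of trypsin-like proteases and of cathepsin G. Its level was 163, 172 and 125 FPKM in MEC and 158, 180 and 205 in lines 199, 233 and 336, so that the groups overlapped and the lines covered a 1.29-fold range, the smallest of the tested serpins with a signal in the lines. The log2 fold change was 0.25 ± 0.18 (SE, limma adjusted p = 0.413). Exons of *Nqo2*, *Ripk1* and *1110046J04Rik* on the opposite strand cover 14.1%, 4.46% and 10.8% of its exon bases, and reads of these genes cannot be told apart from its own without strand.

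Other groups of proteases and inhibitors were described from lists. Over all tested entries, 2.64% were called higher and 7.26% lower. Of 10 tested membrane-anchored and secreted serine proteases, many of them targets of serpins or Kunitz inhibitors, 1 was called higher and 3 lower. *Htra1*, a secreted trypsin-like protease, rose from 181 ± 15.3 to 359 ± 110 FPKM (SD, n = 3, limma adjusted p = 0.0487). Hepsin (*Hpn*) fell from 15.3 ± 3.00 to 1.03 ± 1.19 FPKM (adjusted p = 0.0110), and *Tmprss13* from 3.72 ± 0.336 to 0.450 ± 0.467 (0.0164), *Furin* being the third. Of 6 tested genes of coagulation and the protein C pathway, whose proteases antithrombin and protease nexin 1 inhibit, 1 was called higher and 3 lower. Thrombomodulin (*Thbd*), which turns thrombin to protein C, rose from 6.32 ± 5.41 to 51.9 ± 23.2 FPKM (limma adjusted p = 0.0313). Tissue factor (*F3*) fell from 132 ± 63.7 to 23.3 ± 14.9 FPKM (0.0443), the protease-activated receptor *F2rl1* from 85.5 ± 35.8 to 8.89 ± 10.9 (0.0400), and protein S (*Pros1*) from 13.7 ± 3.52 to 2.07 ± 1.19 (0.0130).

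The lysosomal cathepsins, most of them cysteine proteases of the kind that some clade B serpins inhibit, had 3 of 14 tested genes called lower and 0 higher. These were *Ctsb*, from 133 ± 28.3 to 52.1 ± 11.4 FPKM (SD, n = 3, limma adjusted p = 0.0194), *Ctsc*, from 33.3 ± 6.21 to 6.18 ± 6.19 (0.0453), and *Ctss*, a cathepsin of antigen-presenting cells, from 6.58 ± 2.15 to 0.0147 ± 0.0254 (0.00297). The epidermal kallikreins had 4 of 13 genes tested and 0 called, although *Klk10* was at 127 FPKM in line 233, against 0.505 to 13.8 in the other 5 libraries. Protease inhibitors outside the serpin family had 11 of 23 measured genes tested, 2 called lower and 0 higher. The Kunitz inhibitor *Tfpi2* fell from 7.09 ± 3.47 to 0.0620 ± 0.0939 FPKM (limma adjusted p = 0.0109), and *Itih5*, a hyaluronan-binding inter-alpha-inhibitor chain, from 3.34 ± 0.698 to 0.163 ± 0.210 (0.00961). Of the tested entries in all, 9.9% were called in either direction.

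The members below an FPKM of 1 in every library were, in clade A, *Serpina1a* to *Serpina1f*, *Serpina3a*, *Serpina3b*, *Serpina3c*, *Serpina3f*, *Serpina3i*, *Serpina3j*, *Serpina3k*, *Serpina3m*, *Serpina3n*, *Serpina4-ps1*, *Serpina5*, *Serpina6*, *Serpina7*, *Serpina9*, *Serpina10*, *Serpina11* and *Serpina12*. In clade B they were *Serpinb1a*, *Serpinb1b*, *Serpinb1c*, *Serpinb1-ps1*, *Serpinb3a* to *Serpinb3d*, *Serpinb6c*, *Serpinb6d*, *Serpinb6e*, *Serpinb9b*, *Serpinb12* and *Serpinb13*. The others were *Serpinc1*, *Serpind1*, *Serpine3*, *Serpinf2*, *Serpini1* and *Serpini2*. *Serpinb1b* came closest to an FPKM of 1, at 0.943 in line 336, and *Serpinb9b* next, at 0.753 in line 199.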

How the data were processed

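RNA-seq libraries of 3 MEC preparations and 3 MEKO lines were analysed, with groups from the sample titles and genotype labels. The authors trimmed paired-end reads of 150 bases with Trimmomatic, aligned them to mm10 with TopHat2 2.0.14 and Bowtie2, and computed gene FPKM with Cufflinks 2.2.1. The deposited values are these FPKM. Read numbers are not part of the table, so the depth is unknown and no counting interval was computed. The relative depth was read as the most frequent ratio between libraries of FPKM values under 0.15. Genes at low levels are the least precise. How the library kit treats strand is not given in the sources used here. Cuffdiff, which the authors ran on the reads, was not used here.

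Of 37755 entries, 2 held no values and 466 joined several gene names. A member on several entries was read from the entry with the highest mean. Entries with a mean FPKM of at least 1 were compared between the groups with limma 3.58.1 (R 4.3.3) on log2(FPKM + 1), with a mean-variance trend, and adjusted by the Benjamini-Hochberg method over all of them. Fold changes on this scale understate changes of low genes. Libraries of a group are separate preparations or lines. The fit was tested on simulated data with equal spread in both groups, which does not cover the wider spread of the MEKO lines. Positions come from GENCODE release M21, promoters from RefSeq (GRCm38.p6; 52 of 63 names matched), and transcripts were compared with BLAST 2.17.0. The reactive centre loops were not analysed here.

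Members and lists were chosen with earlier results of these data known. By rule the text names each member that reached an FPKM of 1, except that 1 member, which the counts include, is not reported here. It also names *Mapk8* and *Mapk9*, up to 4 called genes from each list and the cell type markers. Other genes were named after their values were seen, namely *Ube2l6*, *C1s*, *C1ra*, *Gm19426* and those list members that were not called. Alternatives were a pseudocount of 0.1, a minimum mean FPKM of 5 or none, quantile and upper-quartile scaling, no trend, sample weights, other fold thresholds and each library left out in turn.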

Additional observations from a re-analysis of the deposited data

How the results depend on the processing

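No serpin changed the direction of its log2 fold change in any of the 13 alternative fits, and none was called higher in MEKO in any of them. All these fits compare log2 values. By mean FPKM, *Serpinf1* had the opposite direction, with 91.2 in MEKO and 38.1 in MEC. *Serping1* was called lower in all 12 alternative fits in which it was tested, with limma adjusted p between 0.00130 and 0.0219. The number of serpins called lower was 1 in the reported fit. It was 0 with the filter at a mean FPKM of 5, which *Serping1* did not pass, and 2 with sample weights (*Serpinb5* and *Serping1*). With each library left out it was between 1 and 4, the highest without line 199 (*Serpinb5*, *Serpinf1*, *Serping1* and *Serpinh1*), and 2 without line 336. The cause of the change with sample weights was not tested. Over all genes 1234 were called in the reported fit, 738 with the filter at a mean FPKM of 5, which tests fewer genes, and 1978 with sample weights. With each library left out the number was between 259, without MEC 1, and 1966, without line 199; it was 301 without MEC 2 and 477 without MEC 3. The count of serpins above MEC in line 336 was 1 and became 0 with the filter at a mean FPKM of 5, since *Serpinb9e* did not pass it. No paired analysis was possible because the MEC libraries are numbered 1 to 3 and the lines 199, 233 and 336, so that the groups share no number. The depth of the libraries is unknown, and the serpins under an FPKM of 1 are the least certain.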

Other observations

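The complement proteases that the C1 inhibitor blocks were looked up after the *Serping1* values were seen. *C1s* was at 31.0 ± 6.17 FPKM in MEC and 2.63 ± 2.27 in MEKO (SD, n = 3), and was lower in 3 of 3 lines (log2 fold change -3.43, limma adjusted p = 0.0220). *C1ra* was at 2.29 ± 0.527 and 1.12 ± 0.586 FPKM (-0.67, adjusted p = 0.203). The neighbour of *Serping1* on the side of lower coordinates, *Gm19426*, was at 0.387 to 0.948 FPKM in MEC and 0.976 FPKM or more in each line.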
